A study of Mus musculus with 24 samples.

Results

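The Dlk1-Dio3 domain on mouse chromosome 12 holds one of the largest groups of microRNA (miRNA) genes in the mouse genome. The entries described here were the rows of the deposited miRNA count table whose hairpin lies between 109540000 and 109750000 on chromosome 12 of the GRCm38 build, a stretch that runs from Meg3 through Rtl1 and Rian to Mirg. RefSeq places 60 hairpins there, and 59 rows of the 1227 in the table belonged to them. The table names miRNAs without a position, and the name mir-1906 stood on 2 rows for a copy inside and a copy outside the stretch. Those 2 rows could not be assigned, held 2 counts in all and were not used. The 2 rows of mir-3070 both have their copy inside.

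The study asked how age and a severe burn affect skeletal muscle. Gastrocnemius muscle came from male C57BL6 mice in 4 groups of 3 animals, a young sham, a young burn, an adult sham and an adult burn group. The mice were 4 weeks (young) or 10 weeks (adult) old when obtained. After acclimation they were 5 weeks (young) or 11 weeks (adult) old at the burn or sham procedure. Burned mice had a scald over 25% of the body surface and lactated Ringer's solution for resuscitation, sham mice had the anesthetic and analgesic but neither the scald nor the resuscitation, and muscle was taken 24 h later. Burn and resuscitation therefore cannot be told apart, and burn below stands for both. The labels name no transgene or deletion. Both small RNA and poly-A RNA were sequenced, which gave 12 miRNA and 12 mRNA libraries. The miRNA libraries held 1704531 to 3149396 counts, and 45 to 52 of the 59 rows had at least 1 count in a library. The p-values measure the spread between mice. No source used here says whether young and adult libraries were prepared together, so any difference in preparation cannot be told apart from age. The study's RNA quality report gives no RNA integrity number for any sample. In it no young sham sample had a higher ratio of large to small ribosomal RNA than any adult sham sample, while the burn groups were alike. The part of RNA quality in the results was not tested.

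In mammals the domain is imprinted, which means that each parental copy is active for different genes. Dlk1, Rtl1 and Dio3, which code for proteins, are expressed from the paternal copy, while the long noncoding RNAs Meg3, Rian and Mirg and the miRNAs and small nucleolar RNAs in and between them come from the maternal copy. A miRNA is cut from a hairpin as an arm of the 5′ side (5p) or the 3′ side (3p), and its seed, bases 2 to 8, does most of the pairing with target mRNAs. The domain is known for high activity in embryonic and placental tissue and in muscle stem cells, and it carries the callipyge muscle trait of sheep.

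RefSeq (GRCm38.p6) lists 112 mature sequences inside these hairpins, and they carry 102 distinct seeds, so the domain is not one seed family. Counts were made per hairpin, and the 5p and 3p arm of an entry cannot be told apart. The 7 hairpins inside Rtl1 lie in its coding sequence, and all but mir-3071 lie on the opposite strand, so their mature forms pair with the Rtl1 mRNA over their full length. A search of the Rtl1 transcript found the full complement of 11 mature sequences from 6 entries, mir-431, mir-433, mir-127, mir-434, mir-432 and mir-136. The arms of the most abundant of these, mir-127, mir-434 and mir-136, are shown with the seed in capitals. Those of mir-431 are added because it is named below for its difference with age.
miR-127-5p: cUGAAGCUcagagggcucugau
miR-127-3p: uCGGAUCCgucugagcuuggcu
miR-434-5p: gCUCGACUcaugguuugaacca
miR-434-3p: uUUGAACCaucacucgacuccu
miR-136-5p: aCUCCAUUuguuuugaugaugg
miR-136-3p: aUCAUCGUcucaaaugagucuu
miR-431-5p: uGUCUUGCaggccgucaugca
miR-431-3p: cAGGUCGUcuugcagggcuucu
For miR-127-3p, encoded on the plus strand at chr12:109592888-109592909, the Rtl1 mRNA reads as its full complement over the same bases of the minus strand.
Rtl1 site of miR-127-3p: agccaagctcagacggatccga

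Further along the domain some mature sequences are close to each other, and 9 seeds are each shared by a pair of mature sequences, 18 in all. The pairs shown next have equal length and differ at no more than 3 bases. Reads of such close pairs could be credited to either entry, which bears on how far the counts of the pair are separate. A shared seed alone does not make a pair this close. The 3p arms of miR-379 and miR-411 share a seed and 20 of 22 bases, and the 5p arms of miR-376b and miR-376c share 21 of 22. The 3p arms of miR-300 and miR-381 share 19 of 22 bases but not the seed. No mature sequence of another name outside the domain came within 3 bases of one inside it at equal length. Copies of the same name, as for mir-1906, were not compared.
miR-379-3p: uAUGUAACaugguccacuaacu
miR-411-3p: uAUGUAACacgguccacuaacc
miR-376b-5p: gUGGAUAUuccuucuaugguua
miR-376c-5p: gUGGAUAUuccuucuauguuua
miR-300-3p: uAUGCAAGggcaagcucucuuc
miR-381-3p: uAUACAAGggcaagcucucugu
The last set belongs to entries named below for their level or their difference with age.
miR-379-5p: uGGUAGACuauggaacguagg
miR-411-5p: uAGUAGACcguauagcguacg
miR-541-5p: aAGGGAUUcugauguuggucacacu
miR-410-3p: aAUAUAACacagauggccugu
miR-665-3p: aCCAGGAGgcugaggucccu
miR-668-3p: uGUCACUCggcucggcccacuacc
miR-412-3p: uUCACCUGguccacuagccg

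Domain miRNAs took a far larger share of the miRNA counts in young than in adult muscle. The share was 3.67%, 2.60% and 2.74% in the young sham libraries, 3.06%, 3.28% and 3.73% in the young burn libraries, 0.400%, 0.359% and 0.485% in the adult sham libraries, and 0.483%, 0.478% and 0.425% in the adult burn libraries. Every young library lay above every adult library, and within each age the sham and burn values overlapped. The means were 3.00% ± 0.583 for young sham, 3.36% ± 0.337 for young burn, 0.414% ± 0.0643 for adult sham and 0.462% ± 0.0317 for adult burn (SD, n = 3 each). Leaving out mir-127, the most abundant entry, the share was still 1.66% to 2.32% in the 6 young and 0.217% to 0.321% in the 6 adult libraries. A share depends on everything else in the library, and the most abundant entry, a mir-1a row, took 26.0% to 32.5% of the counts.

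**Figure D1:**
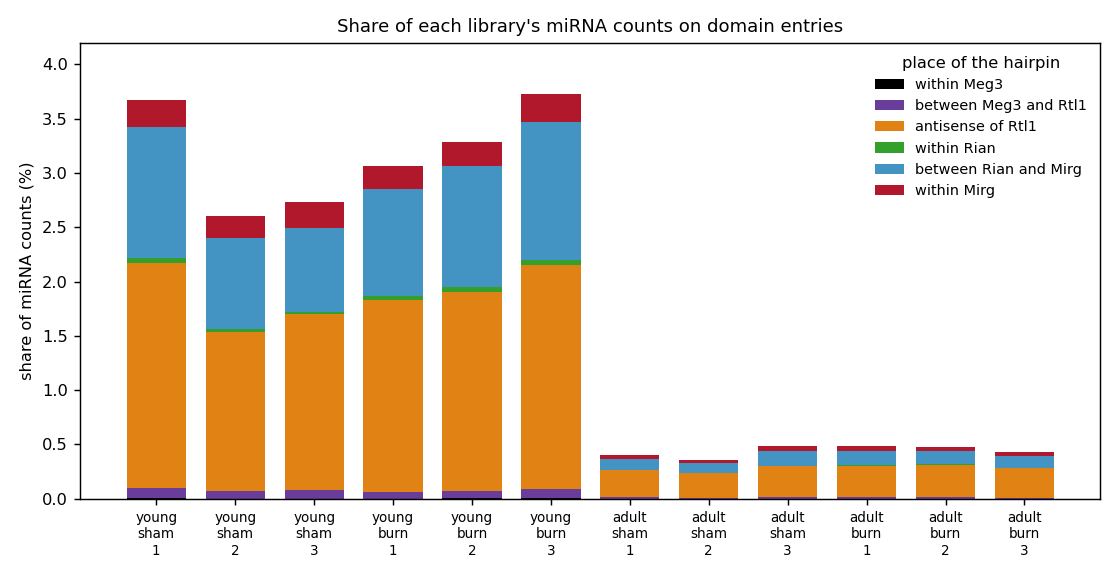
Stacked bars give the share of each miRNA library's counts (%) that fell on domain entries, coloured by the place of the hairpin, for the 12 libraries in 4 groups; entries lying opposite Rtl1 make up the largest block. The 6 young libraries reach 2.60% to 3.73% and the 6 adult libraries 0.359% to 0.485%.

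A few entries made up most of this share. Over the 12 libraries mir-127 had the highest mean level, at 6210 normalized CPM, that is, counts divided by the scaled library total and set to a common total, followed by mir-381 at 2480, mir-434 at 2169, mir-136 at 882, mir-411 at 796, mir-379 at 780, mir-541 at 521 and mir-300 at 320. Together these 8 entries held 83.9% to 88.2% of the domain counts of a library. The order of levels was close to the same in the 4 groups, with Spearman's rho of 0.978 to 0.997 between group means over 53 entries that share hairpin, sequence and counting. mir-127 stayed at 33.6% to 40.3% of the domain counts in every library. mir-381 did not keep its place, with 10.0% to 19.5% of the domain counts in the 6 young libraries and 5.52% to 9.46% in the 6 adult libraries, and ranked 2 among domain entries in both young groups, 3 in adult sham and 5 in adult burn.

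The comparison of young sham with adult sham asked how age goes with these miRNAs in mice without a burn. Of the 59 rows, 46 had enough counts to be tested among 299 rows of the whole table by edgeR's quasi-likelihood test with Benjamini-Hochberg adjustment, and 46 were higher in young sham at an adjusted p under 0.05, none lower. Of the 299 tested rows 30.8% were called higher in this comparison, and of the 253 rows outside the domain 18.2%. Of all 299 tested rows, 92 were called higher and 76 lower, and scaling by library size alone turned that split to 159 and 20, with 46 domain entries among the higher. The median log2 fold change (young over adult) was 2.19 over the tested domain entries, or 4.56-fold, against 0.02 over all tested rows. It ranged from 1.28 for mir-412 to 3.34 for mir-665, and for 30 entries it was over 2. In each of the 46 entries the 3 young values lay above the 3 adult values, which held for 35.5% of all tested rows. The filter on low counts bears on these numbers, since 8 of the 46 reached the minimum in at least 3 young libraries but not in 3 adult ones, so they could be tested because they were high in the young. The other 38 reached it in both ages.

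With burn in both groups the picture was much the same. Comparing young burn with adult burn, 45 of the 46 tested entries were higher in the young animals and none lower (edgeR, adjusted p under 0.05), where 29.8% of all tested rows and 17.4% of those outside the domain were called higher. The median log2 fold change was 2.21, or 4.64-fold, against -0.04 over all tested rows. For 45 entries the values of the groups did not overlap, with the young higher, as for 30.8% of all tested rows. The same 46 entries were tested, so the 8 that passed the low-count filter through the young libraries bear on these numbers too. The other 38, which reached the minimum in both ages, were all called higher here. This comparison uses other mice than the sham comparison.

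**Figure D2:**
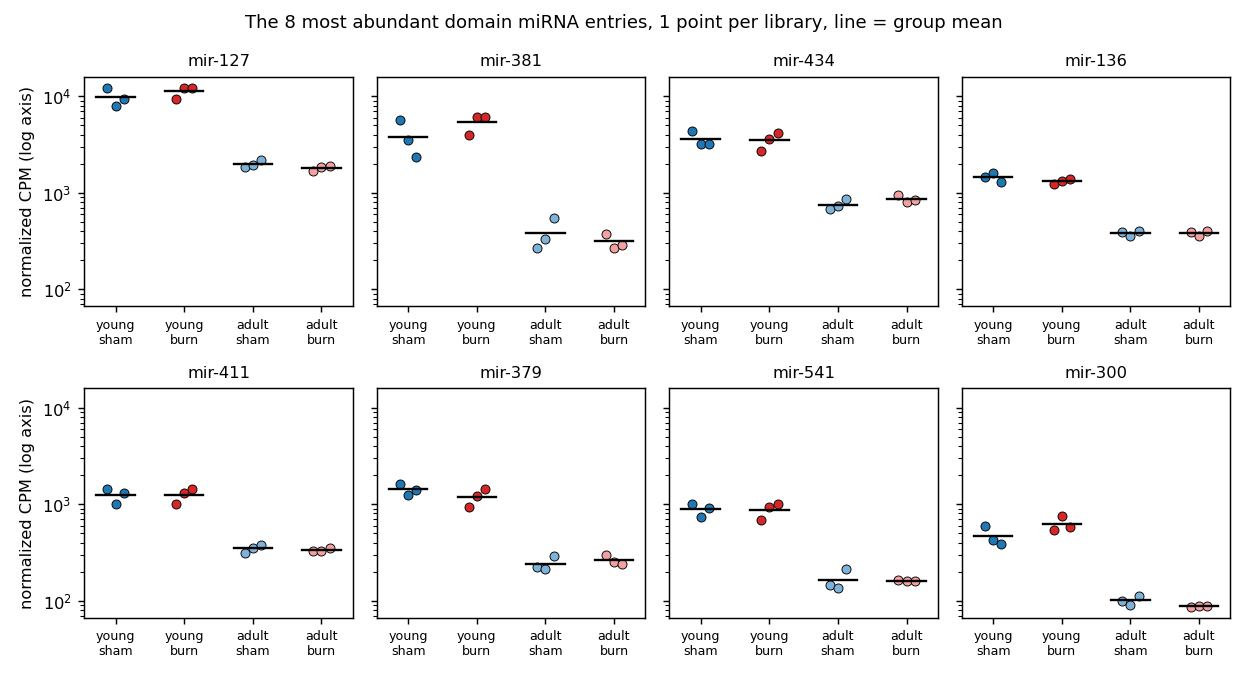
Each panel plots the normalized CPM (log axis) of 1 of the 8 most abundant domain entries, with 1 point for each of the 12 libraries and a line at the mean of each group. In every panel the 6 young points lie above the 6 adult points, and the points within an age spread most for mir-381.

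The entries opposite Rtl1 included 3 of the 4 most abundant. mir-127, whose arms pair fully with Rtl1, had 12192, 7852 and 9288 normalized CPM in young sham, 9418, 12292 and 12074 in young burn, 1849, 1928 and 2162 in adult sham, and 1693, 1857 and 1910 in adult burn. The lowest young library was thus well above the highest adult one. Its log2 fold change was 2.30 ± 0.15 (SE, n = 3 per group) between the sham groups (adjusted p = 1.28e-09) and 2.63 ± 0.16 between the burn groups (adjusted p = 3.26e-10). For mir-434 the young sham values were 4341, 3186 and 3181, the young burn values 2718, 3610 and 4131, the adult sham values 672, 726 and 855, and the adult burn values 944, 808 and 850 CPM. No young value reached down to an adult one, and the log2 fold changes were 2.25 ± 0.16 (adjusted p = 3.31e-09) and 2.01 ± 0.16 (adjusted p = 8.10e-09).

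mir-136, next to mir-434 in Rtl1, varied least among the abundant entries. It stood at 1450, 1593 and 1304 CPM in young sham, 1227, 1334 and 1376 in young burn, 388, 356 and 398 in adult sham, and 392, 354 and 406 in adult burn. Both ages formed tight sets far apart, with log2 fold changes of 1.93 ± 0.12 (sham) and 1.77 ± 0.12 (burn). mir-431, a miRNA studied in muscle regeneration, was much less abundant, with 88.7, 52.9 and 73.5 CPM in young sham and 64.5, 96.9 and 89.3 in young burn. Adult muscle had 9.50, 8.10 and 5.78 CPM after sham and 5.97, 11.97 and 7.06 after burn, so the groups did not overlap. With log2 fold changes of 3.20 ± 0.28 and 3.29 ± 0.27 (adjusted p = 2.23e-08 and 1.11e-08) it was among the 5 entries with the largest age difference between the sham groups. mir-433 was called higher in both comparisons too, while mir-432 and mir-3071, which lies on the strand of Rtl1 and overlaps mir-136, had no counts.

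The cluster between Rian and Mirg held 26 of the 59 rows, and 21 of them were tested. Its first abundant member, mir-379, had 1603, 1248 and 1412 CPM in young sham, 942, 1217 and 1425 in young burn, 221, 212 and 287 in adult sham, and 294, 253 and 242 in adult burn. The lowest young burn library was still more than 3 times the highest adult library, and the log2 fold changes were 2.56 ± 0.17 and 2.18 ± 0.16. mir-411, which shares a 3p seed with it, had 1444, 1003 and 1316 CPM in young sham, 999, 1313 and 1433 in young burn, 313, 353 and 377 in adult sham, and 324, 327 and 352 in adult burn. This is again a clean separation by age, with a smaller difference of 1.85 ± 0.15 and 1.90 ± 0.15 on the log2 scale.

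Near the end of this cluster, mir-381 stood out among the abundant entries. Young sham libraries had 5609, 3486 and 2366 CPM, young burn libraries 4000, 6074 and 6136, adult sham libraries 269, 330 and 551, and adult burn libraries 378, 271 and 290. The young sham values spread more than 2-fold, and the lowest of them was still above every adult value. Its log2 fold change was 3.31 ± 0.30 between the sham groups (9.95-fold, adjusted p = 2.84e-08) and 4.11 ± 0.31 between the burn groups (17.3-fold, adjusted p = 4.28e-09). mir-300, whose 3p arm resembles that of miR-381, had 587, 427 and 389 CPM in young sham, 536, 747 and 586 in young burn, 98.8, 90.7 and 112 in adult sham, and 85.4, 88.6 and 88.7 in adult burn. Its groups did not overlap by age, and its differences were 2.21 ± 0.17 and 2.83 ± 0.17 on the log2 scale. mir-487b, the hairpin after mir-381, had 47.0, 41.8 and 49.7 CPM in young sham, 32.8, 42.3 and 59.8 in young burn, 5.37, 5.40 and 4.63 in adult sham, and 10.1, 9.98 and 9.07 in adult burn. All young values were above all adult values, with log2 fold changes of 3.16 ± 0.26 and 2.19 ± 0.23.

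At the 3′ end, within Mirg, 12 of 14 rows were tested. mir-541 had 1010, 732 and 903 CPM in young sham, 692, 931 and 1013 in young burn, 144, 136 and 211 in adult sham, and 165, 158 and 158 in adult burn. The ages were separate, and the log2 fold changes were 2.42 ± 0.18 and 2.45 ± 0.18. mir-410, the last of the named hairpins, had 123, 99.0 and 99.9 CPM in young sham, 97.3, 130 and 114 in young burn, 14.9, 17.3 and 21.2 in adult sham, and 20.7, 25.1 and 17.1 in adult burn. It too separated the ages, by 2.59 ± 0.19 and 2.43 ± 0.19. mir-668, at lower levels, had 29.9, 18.4 and 31.9 CPM in young sham, 22.4, 23.9 and 27.4 in young burn, 2.48, 1.08 and 4.63 in adult sham, and 2.75, 5.59 and 6.55 in adult burn. Its log2 fold changes of 3.18 ± 0.38 and 2.29 ± 0.35 were both called, and it passed the filter through the young libraries.

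At the 5′ end, between Meg3 and Rtl1, mir-665 had the highest fitted age difference of the domain, close to that of mir-381. It passed the filter on low counts through the young libraries alone, so it had to differ to be tested. Its raw counts were 45, 39 and 31 in young sham, 44, 49 and 45 in young burn, 2, 5 and 4 in adult sham, and 2, 0 and 0 in adult burn. The young libraries thus held 31 to 49 counts and the adult libraries at most 5. The log2 fold change between the sham groups was 3.34 ± 0.44 (adjusted p = 4.10e-06). Between the burn groups the summed counts were 138 and 2, a normalized ratio of 53.0 with a 95% interval of 14.4 to 442 that covers counting error only. The fitted log2 fold change of 5.52 there depends on the prior count.

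The smallest age difference was that of mir-412. It had 14.9, 10.4 and 13.7 CPM in young sham, 13.04, 15.7 and 14.3 in young burn, 5.37, 7.02 and 3.86 in adult sham, and 2.29, 9.58 and 7.06 in adult burn. The highest adult burn value came within 1 CPM of the lowest young value, and the log2 fold changes were 1.28 ± 0.39 (adjusted p = 0.00928) and 1.16 ± 0.36 (adjusted p = 0.0120). Without adult sham replicate 3 the first of these had an adjusted p of 0.0538, and without adult burn replicate 1 the second had 0.0536. mir-323 had 27.7, 18.4 and 20.3 CPM in young sham and 8.26, 6.48 and 8.10 in adult sham, and 20.1, 25.7 and 23.2 in young burn and 4.13, 7.58 and 7.06 in adult burn. The groups did not overlap in either comparison, and the log2 fold changes were 1.52 ± 0.27 and 1.86 ± 0.28.

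The 2 miR-376 entries with the shared 5p seed were close in size of difference. mir-376c had 72.0, 53.3 and 50.2 CPM in young sham, 62.8, 58.9 and 64.5 in young burn, 20.7, 17.8 and 21.6 in adult sham, and 16.5, 16.0 and 17.6 in adult burn, with log2 fold changes of 1.54 ± 0.18 and 1.89 ± 0.18. mir-376b had 146, 113 and 108 CPM in young sham, 112, 110 and 132 in young burn, 39.3, 46.4 and 39.7 in adult sham, and 57.8, 27.9 and 43.4 in adult burn, with 1.55 ± 0.21 and 1.46 ± 0.21. In both entries every young value was above every adult value. mir-666 had 32.5, 33.8 and 34.0 CPM in young sham, 26.7, 28.4 and 33.3 in young burn, 13.2, 10.8 and 10.0 in adult sham, and 5.51, 3.99 and 8.57 in adult burn. Its age difference was 1.55 ± 0.23 between the sham groups and 2.31 ± 0.26 between the burn groups.

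A single tested entry missed the threshold in an age comparison. mir-299b, which lies on the strand opposite to mir-299a and overlaps it, had 6.15, 4.22 and 9.13 CPM in young sham, 2.01, 5.74 and 3.37 in young burn, 0, 1.08 and 3.08 in adult sham, and 1.38, 0.798 and 2.52 in adult burn. The burn groups overlapped, and the log2 fold change of 1.29 had a 95% interval of -0.27 to 2.85 (adjusted p = 0.153). Between the sham groups the log2 fold change was 2.10 ± 0.70 (adjusted p = 0.0171). That call was lost without adult sham replicate 1 or 2 or young sham replicate 3 (adjusted p = 0.0709, 0.0529 and 0.0666). The entry reached the minimum of the low-count filter in 4 young and 0 adult libraries, so it could be tested because it was higher in the young. Whether counting used the strand is not given, though mir-136 held 26560 counts while mir-3071, overlapping it on the other strand, held 0. The sequences of mir-299a and mir-299b also coincide. All 21 bases of miR-299b-5p stand within miR-299a-5p, and all 18 bases of miR-299b-3p within miR-299a-3p. Reads of mir-299b therefore cannot be told apart from those of mir-299a.

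The remaining 13 rows had too few counts to be tested. No library had a read for 6 of them, mir-432, mir-3071, mir-882, mir-654, mir-453 and 1 of the mir-3070 rows. The other 7 had more counts in the 6 young than in the 6 adult libraries, with 47 against 5 for mir-1197, 45 against 11 for mir-3072, 38 against 4 for mir-758, 26 against 2 for mir-544, 6 against 0 for mir-1188, 4 against 0 for mir-3544 and 2 against 0 for the second mir-3070 row.

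The age difference was read by place along the stretch. Between the sham groups the median log2 fold change of the tested entries was 2.36 for mir-770, the 1 tested entry within Meg3 and one that passed the filter through the young libraries, 2.35 for 5 entries between Meg3 and Rtl1, 2.30 for 5 within Rtl1, 2.29 for 2 within Rian, 2.17 for 21 between Rian and Mirg, and 2.09 for 12 within Mirg. Between the burn groups these medians were 2.41, 2.38, 2.33, 3.02, 2.18 and 2.04 in the same order. Over the 46 entries, which share libraries, Spearman's rho of the sham log2 fold change was -0.16 with distance from the start of Meg3 and 0.09 with mean level. Ranked among all 299 tested rows by that fold change, 40 of the 46 domain entries stood among the top 46, and the lowest domain entry ranked 63rd, below 17 rows from elsewhere in the genome. This ranking includes the 8 entries that could be tested because they were high in the young.

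**Figure D3:**
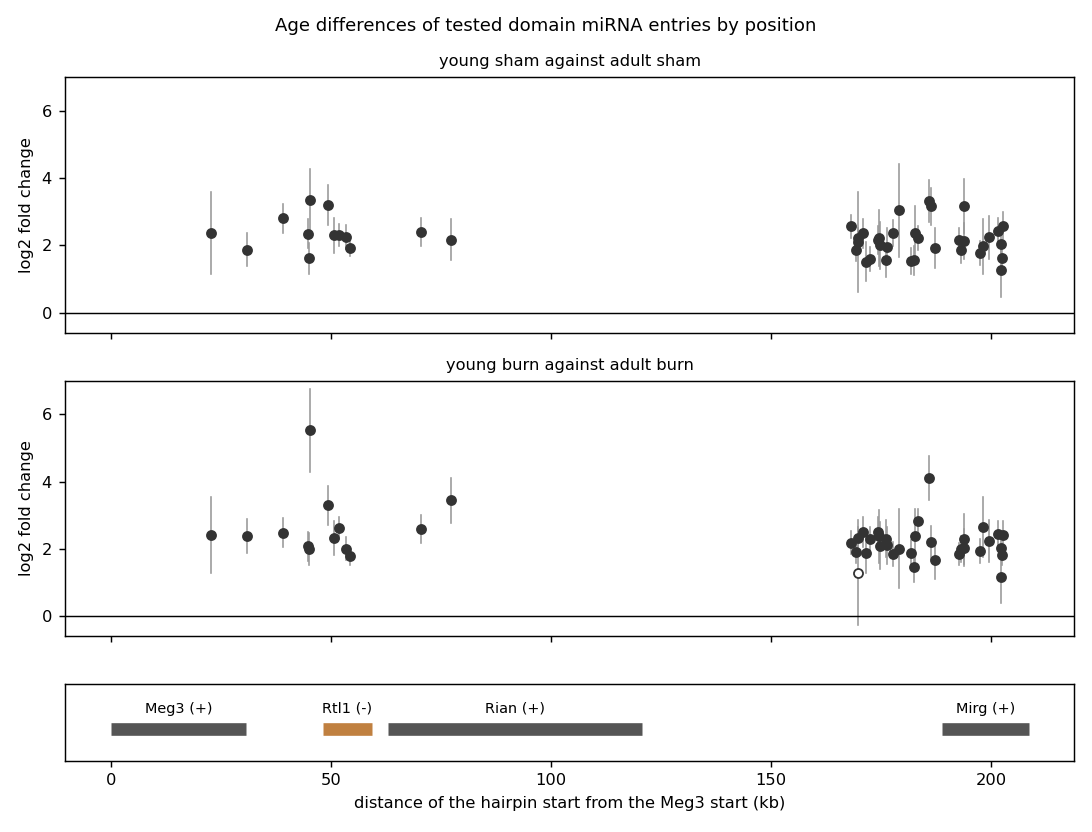
The log2 fold change (young over adult) of each of the 46 tested domain entries is drawn against the distance of its hairpin from the start of Meg3 in kb, with the 95% interval as a bar, for the sham groups (upper panel) and the burn groups (middle panel), above a map of the genes. All points lie above 0, from 1.28 to 3.34 between the sham groups and from 1.16 to 5.52 between the burn groups.

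No tested domain entry was called with burn at 24 h by the same test. In the adult burn against adult sham comparison 0 of 46 entries were called (edgeR, adjusted p under 0.05), as were 0% of all tested rows, with 5 domain entries and 23 rows of the table at an unadjusted p under 0.05. With DESeq2, 0 domain entries and 1 row of the table were called. The median log2 fold change (burn over sham) was -0.04, and the values of the groups were apart in 11 entries, 4 higher and 7 lower, where 20.1% of all tested rows were apart in either direction. The 95% interval of the log2 fold change lay within 1 of 0 for 32 entries and within 0.5 for 10, and for the entries not within 1 a change of 2-fold or more lay inside the interval. For mir-127 the interval was -0.43 to 0.19, for mir-381 it was -0.88 to 0.29, and for mir-136 it was -0.23 to 0.25.

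The same was asked in the young mice. Of 46 entries 0 were called by edgeR, as were 0% of all tested rows, while 2 domain entries and 37 rows of the table had an unadjusted p under 0.05. With DESeq2, 0 rows of the table were called. The median log2 fold change was -0.01, in none of the 46 entries were the groups apart, and 14.4% of all tested rows were apart in either direction. Intervals lay within 1 of 0 for 43 entries and within 0.5 for 15. For mir-127 the interval was -0.10 to 0.51 and for mir-136 it was -0.38 to 0.09. For mir-381, where 2 burn libraries with 6074 and 6136 CPM stood above the sham libraries at 2366 to 5609, it was -0.07 to 1.07 (log2 fold change 0.50 ± 0.27, adjusted p = 0.478). A fit by edgeR without the filter on low counts tested 756 rows and called 6, this entry among them. Its log2 fold change there was 0.53 ± 0.13 (adjusted p = 0.00887), so the SE fell while the fold change hardly moved. mir-381 is named here after its values were seen.

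Some entries leaned with burn in one age without passing the test. In the adults mir-487b was about 5 CPM in the 3 sham and 9 to 10 CPM in the 3 burn libraries, a log2 fold change of 0.92 ± 0.31 (adjusted p = 0.544). mir-666 was lower in all 3 adult burn than in all 3 adult sham libraries, with -0.94 ± 0.29 (adjusted p = 0.544). So was mir-370, with -0.88 ± 0.38 (adjusted p = 0.595). The counts of mir-665 in the adults were 11 after sham and 2 after burn, a normalized ratio of 5.34 with a counting interval of 1.17 to 49.6. In the young mice mir-300 was higher after burn in its mean, by 0.41 ± 0.15 on the log2 scale (adjusted p = 0.270).

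Whether burn acted differently by age was tested as the burn by age interaction. No domain entry and 0% of all tested rows were called by edgeR, with 6 domain entries and 36 rows of the table at an unadjusted p under 0.05. With DESeq2, 0 domain entries and 2 rows of the table were called. The median interaction was 0.07 on the log2 scale, with a range of -1.03 for mir-667 to 2.18 for mir-665. For mir-370 it was 1.27 ± 0.45 (adjusted p = 0.278). The value for mir-667 turned to 0.29 without adult burn replicate 2, and that for mir-665 rests on the 2 counts in adult burn. The edgeR fit without the low-count filter called mir-381 here as well (0.83 ± 0.19, adjusted p = 0.00411), among 6 rows called of 756.

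**Figure D4:**
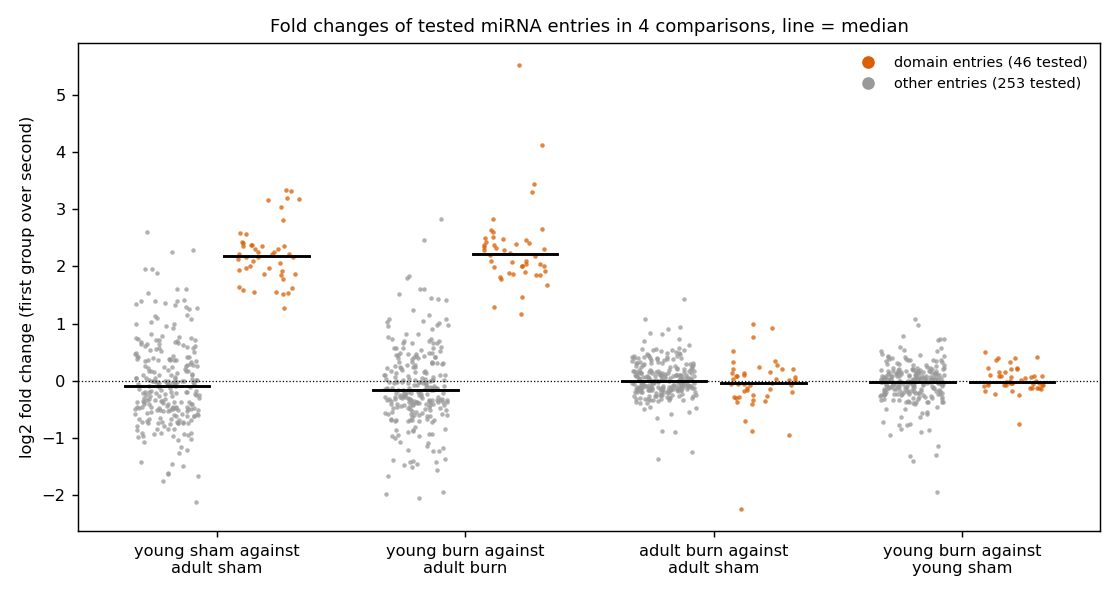
Log2 fold changes (first group over second) of the 299 tested miRNA rows in the 4 comparisons, with domain entries in colour beside the other rows and a line at each median. Domain entries have medians of 2.19 and 2.21 in the age comparisons and of -0.04 and -0.01 in the burn comparisons.

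The long RNAs of the domain were read from the mRNA libraries of the same groups, which held 4392605 to 5688512 counts. A legend in the study sets aside 1 young burn mouse, and the heatmap it belongs to has columns for young burn replicates 1 and 3 alone, so replicate 2 was taken as that mouse and results are given with 12 libraries and with the 11 others. The 4 long RNAs that could be tested, out of 7, were higher in the young in both age comparisons, where 1.92% (sham) and 5.98% (burn) of all tested genes were called higher, or 5.27% and 11.2% in the 11 libraries. Scaling the 12 libraries by size alone turned the split of all genes called from 238 higher and 229 lower to 151 and 445 (sham) and from 742 and 601 to 999 and 325 (burn), with medians of all genes of -0.13 and 0.12, and all 4 long RNAs were called higher in both. Meg3 had 181, 156 and 257 CPM in young sham, 161, 76.1 and 187 in young burn, 40.7, 36.9 and 49.4 in adult sham, and 29.5, 24.4 and 36.8 in adult burn. Young burn replicate 2 was the lowest young library and still above all adult ones. The log2 fold change of Meg3 was 2.22 ± 0.29 between the sham groups (adjusted p = 0.00254) and 2.22 ± 0.30 between the burn groups (adjusted p = 0.00105), or 2.53 ± 0.20 in the latter without that library.

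Rian, which also hosts small nucleolar RNAs, had 135, 96.6 and 128 CPM in young sham, 108, 81.4 and 142 in young burn, 32.3, 29.5 and 27.4 in adult sham, and 24.3, 21.0 and 21.5 in adult burn. Its log2 fold changes were 2.01 ± 0.19 and 2.31 ± 0.20. Dlk1, a membrane protein of the Notch ligand family and expressed from the other parental copy, was also higher in the young, with 11.3 to 18.0 CPM in the 6 young and 1.68 to 4.52 in the 6 adult libraries and log2 fold changes of 2.005 ± 0.31 and 2.32 ± 0.30. Mirg, the host of the last 14 rows, was sparse with 244 counts in all. It had 8.28, 7.70 and 7.07 CPM in young sham, 5.02, 2.37 and 8.38 in young burn, 3.31, 1.81 and 1.48 in adult sham, and 2.52, 0.904 and 1.86 in adult burn, and the burn groups overlapped. Its log2 fold changes of 1.78 ± 0.44 and 1.54 ± 0.45 had adjusted p of 0.0416 and 0.0449 and lost the call in 16 of 24 fits that left out 1 library. Rtl1 had 24 counts in the 12 libraries, Begain 54 and Dio3 50, too few for a test, and antisense reads cannot be told apart from those of Rtl1. None of the 4 was called with burn in either age, where 0.00806% (adult) and 0.0645% (young) of genes were, or 0.909% and 0.664% in the 11 libraries.

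**Figure D5:**
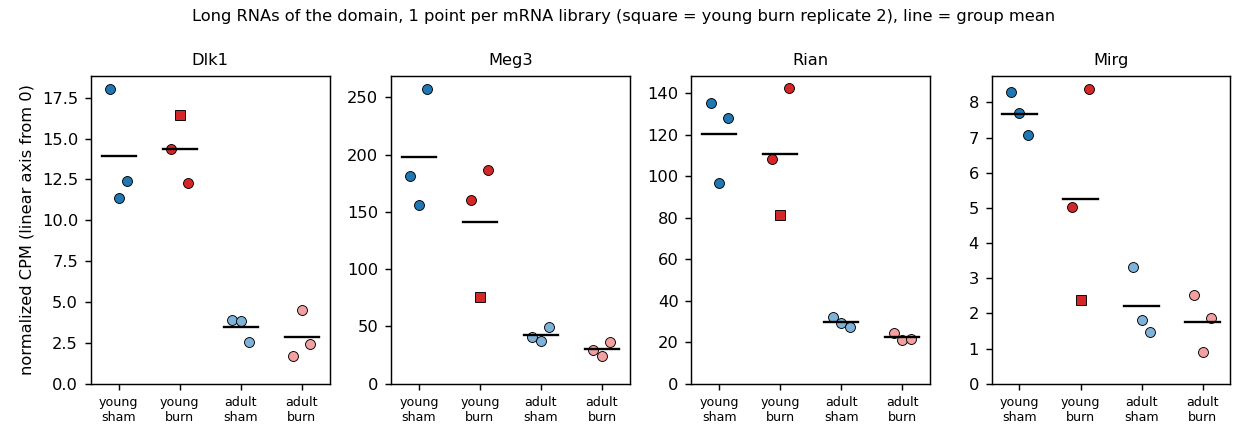
Normalized CPM (linear axes from 0) of the 4 tested long RNAs, Dlk1, Meg3, Rian and Mirg, with 1 point for each of the 12 mRNA libraries, a square for young burn replicate 2 and a line at the group mean. For Dlk1, Meg3 and Rian all young points lie above all adult points, while for Mirg young burn replicate 2 lies among the adult points.

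Genes that make miRNAs did not share this pattern. Of 18 genes of miRNA processing and function on a list, 16 were tested, among them Drosha and Dgcr8, which cut hairpins from the primary transcript, Xpo5, which exports them, Dicer1, which cuts out the arms, and Ago2, which carries the mature miRNA. In young sham against adult sham 0 were called of 16 with 12 libraries, where 3.76% of all tested genes were, and 2 were called with 11 libraries, Tnrc6a (0.43) and Tnrc6c (0.36), where 11.8% of genes were. In young burn against adult burn Ddx17, a helicase of the Drosha complex, was higher at 0.59 ± 0.14 on the log2 scale (adjusted p = 0.0174), where 10.8% of genes were called. The list's median log2 fold change was 0.04 between the sham groups and 0.09 between the burn groups, against 0.01 and 0.02 over all genes.

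Genes reported to regulate the domain, the DNA methyltransferases Dnmt1 and Dnmt3a, the insulator protein Ctcf, the imprinting cofactor Trim28 and the muscle factors Mef2a, Mef2c and Mef2d, were called in 0 of 7 cases tested in each age comparison with 12 libraries, where 3.76% (sham) and 10.8% (burn) of all genes were. With 11 libraries, in which 8 were tested and 11.8% and 20.7% of all genes were called, Mef2d was lower in the young (log2 fold change -0.57 between the sham groups and -0.46 between the burn groups), and between the burn groups Dnmt3a was higher (0.62) and Trim28 lower (-0.34). Of 6 genes that reports name as targets of domain miRNAs in muscle, 5 were tested and 0 were called in either age comparison with 12 libraries. With 11 libraries Smad4, a mediator of TGF-beta signaling, was lower in young burn than in adult burn by -0.43 ± 0.12 and the translation factor Eif5a by -0.29 ± 0.10 (adjusted p = 0.0189 and 0.0468), where 20.7% of genes were called. The 5 tested targets ranged from -0.43 to 1.11 there, with a median of -0.15. Between the sham groups with 11 libraries 0 of the 5 were called, with a median of 0.18, where 11.8% of genes were called.

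Other cell markers and other miRNAs also moved with age in these muscles, and their part in the domain result was not tested. In bulk tissue a higher share of a cell type and more RNA per cell cannot be told apart. Of 10 satellite cell and myoblast genes, 9 were tested, and between the sham groups 4 were higher in the young (Myog, Calcr, Chodl and Mymk) and Myod1 was lower, where 3.76% of all genes were called in either direction. Between the burn groups 3 were higher, Myog, Calcr and Mymk, where 5.98% of all genes were. Their summed level was 117 to 128 CPM in young sham, 120 to 139 in young burn, 82.5 to 92.7 in adult sham and 68.9 to 104 in adult burn, and Pax7, the defining satellite cell gene, was not called. Of 8 genes of fibro-adipogenic cells, Col1a1 (2.22) and Col3a1 (1.74) were higher in young sham, where 1.92% of all genes were, and 4 were higher in young burn (Col1a1, Col3a1, Cd34 and Fap), where 5.98% were, or 5 with 11 libraries, where 11.2% were. The summed level was 6132 to 6586 CPM in young sham, 6036 to 7646 in young burn, 2681 to 3536 in adult sham and 2795 to 3618 in adult burn. Pdgfra, the defining gene of that list, was not called. All 6 skeletal muscle genes listed were detected and tested, and Pvalb and Mylpf were higher in young sham, where 1.92% of all genes were. Between the burn groups their adjusted p was 0.0517 (Ckm) or more with 12 libraries, with a median log2 fold change of -0.20, and with 11 libraries Mylpf was higher and Ckm lower.

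Most rows of the skeletal muscle miRNAs were lower in young sham. Of 9 rows, mir-206, a miRNA of immature and regenerating muscle, was higher in young sham (log2 fold change 0.92), and 6 were lower, among them both mir-1a rows (-0.72 and -0.73), where 25.4% of all tested rows were lower. Their summed normalized level was 504704 to 533043 CPM in young sham, 448100 to 577630 in young burn, 769413 to 948177 in adult sham and 621204 to 761426 in adult burn. Since these rows hold much of every library, the scaling between ages matters for the size of the domain difference. With scaling by library size alone the domain medians were 2.70 (sham) and 2.54 (burn) and the medians of all tested rows 0.52 and 0.30, against 0.02 and -0.04 with TMM scaling. The split of all rows called between the burn groups moved from 89 higher and 76 lower to 113 and 28, while 46 and 45 domain entries were called higher in the sham and burn comparisons as before. Of 12 tested miRNA rows typical of other tissues (blood, endothelium, smooth muscle, nerve, skin), 0 were higher and 3 lower in young sham, a share close to the 25.4% of all tested rows that were lower, and the liver mir-122 and the nerve mir-124 rows were too low to be tested.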

How the data were processed

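Small RNA and poly-A RNA of gastrocnemius muscle were sequenced from 12 mice. Per the labels and the methods, the authors trimmed small RNA reads with mirDeep2, aligned reads with STAR (2.7.5c) to GRCm38, and deposited raw counts per miRNA hairpin from featureCounts (2.0.1) and raw counts per gene from STAR. The miRNA annotation release and the strand and multi-mapping settings are not stated in the sources at hand. Both rows of an identical copy pair such as mir-1a hold nearly equal counts, so a library total counts such reads at each copy.

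Rows were matched to RefSeq hairpins by name, and positions and sequences come from RefSeq (GRCm38.p6). Counts were tested with edgeR (4.0.16, R 4.3.3) by quasi-likelihood F tests (two-sided) on 1 mean per group over 12 libraries, with TMM scaling, a filter on low counts (filterByExpr, minimum count 10, minimum total 15) and Benjamini-Hochberg adjustment over every row tested. Calls are at an adjusted p under 0.05. CPM are TMM-scaled counts per scaled total, and SE is the log2 fold change divided by the root of F. DESeq2 (1.42.0), other scalings, no filter, a replicate block and leaving out each library were alternatives, and mRNA results were also computed without young burn replicate 2. On simulated miRNA counts for young sham against adult sham (292 rows), 59 of 60 changed rows were recovered (29 at 2-fold and 30 at 4-fold) with 2 false calls, and on simulated mRNA counts (12251 genes) 169 of 200 (70 at 2-fold and 99 at 4-fold) with 6 false calls. The changed rows of both simulations were drawn from outside the lowest levels, and as many were raised as lowered. Recovery of sparse entries, or of changes mostly in the same direction, was therefore not simulated. Replicate numbers did not pair the mice.

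Entries named are the 8 that the selection of the domain names as examples (mir-127, mir-379, mir-381, mir-410, mir-431, mir-434, mir-541 and mir-665), the 8 with the highest mean CPM, the 5 with the largest and the 5 with the smallest difference between the sham groups, and any that missed an age call. Other names were added after values were seen. The members and gene lists were chosen with earlier results of these data known. Intervals of count ratios are exact binomial and cover counting error only, since the reads carry no molecular identifiers.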

Additional observations from a re-analysis of the deposited data

How the results depend on the processing

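The age results changed little with the processing. Domain entries called higher in young sham numbered 45 to 47 when 1 library was left out and 46 to 49 under the other alternatives, and in young burn 44 to 46 and 45 to 47. Calls over all rows, in either direction, numbered 152 to 178 and 158 to 179 (sham), and 137 to 171 and 141 to 167 (burn). The 49 and 47 came without the low-count filter, of 53 domain rows tested, where 100 and 90 of 756 rows were called higher. Without the filter on low counts 1 domain entry, mir-381, was called in young burn against young sham and 1, again mir-381, in the interaction. In each of these, 6 of 756 rows were called in all. All other alternatives gave 0 domain calls in the burn comparisons and the interaction. The share of counts on domain entries was 4.11% and 4.58% in the young (sham, then burn) and 0.600% and 0.643% in adults with the counts outside the most abundant entry as denominator, since that removes a large part of each total. With TMM factors made without the domain entries the median of all rows was 0.21 (sham) and 0.18 (burn), the domain median 2.37 and 2.42, and the split of all calls 116 higher and 51 lower, and 103 and 42. mir-667 changed direction when 1 library was left out, with a log2 fold change from -0.31 (without adult burn replicate 2) to 1.48 in adult burn against adult sham and from -1.50 to 0.29 (again without that library) in the interaction, and the cause was not tested. Long RNAs called in each age comparison numbered 3 to 4 when 1 library was left out, 3 between the burn groups where only those were fitted, and 5 of 7 there without the filter. Over all genes 97 to 1488 (sham) and 390 to 2623 (burn) were called when 1 library was left out. With only the burn groups fitted 314 of 12167 genes were called, and without the filter 1787 of 28528 between the burn groups. The replicate block gave 46, 45, 0, 0 and 0 calls and so changed none of these counts. Same-numbered miRNA libraries of different groups had correlations of -0.28 to 0.26 in their deviations from the group mean, and 3 of 12 libraries correlated best with their own number, so pairing by replicate number was not used. With 3 mice a group, the median half-width of the 95% interval of a burn log2 fold change was 0.52 in adults and 0.41 in the young.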

Other observations

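Rows of 3 other miRNA groups were read from the same fit. The mir-29 rows, a family that targets collagen and other matrix mRNAs, were lower in young muscle in 4 of 4 rows in both age comparisons (edgeR, adjusted p under 0.05), where 25.4% of all tested rows were lower in each. Their summed level was 846 to 1001 CPM in young sham, 845 to 958 in young burn, 3494 to 4043 in adult sham and 3464 to 3779 in adult burn. The mir-322 cluster on the X chromosome, whose mir-322 and mir-503 are known to rise as myoblasts differentiate, was higher in the young in 6 of 7 rows in both comparisons, all but mir-450b, where 30.8% and 29.8% of all tested rows were higher, with medians of 0.65 (sham) and 0.97 (burn) on the log2 scale. Its summed level was 671 to 858 CPM in young sham, 712 to 858 in young burn, 378 to 443 in adult sham and 341 to 398 in adult burn. Of the mir-17~92 cluster, a group tied to proliferation, 4 rows were read. Between the sham groups 0 were called by edgeR (3 at an unadjusted p under 0.05), where 30.8% of all tested rows were higher and 25.4% lower. Between the burn groups 2, mir-18a and mir-20a, were higher in the young, where 29.8% of all tested rows were. Their log2 fold changes were 1.42 ± 0.51 and 0.41 ± 0.15 (SE). The cluster's mir-19b and mir-92a were left out, since each name stands on 2 rows without a position. Between the sham groups the mir-19b rows had 0.11 and 0.02 and the mir-92a rows -0.36 and -0.73. mir-18a had 1 to 28 counts a library. Log2 fold changes with burn lay between -0.87 and 0.72 over the rows of the 3 groups.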
